A study of Homo sapiens with 4 samples.

Results

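The voltage-gated ion channel genes described here are the protein-coding genes whose symbols begin with KCN (potassium channels), SCN with a number and A or B (sodium channels) or CACNA, CACNB or CACNG (calcium channels), together with the 4 HCN genes. They number 141 of the 58243 genes in the tables, of which 19818 were classed as protein-coding: 97 potassium, 14 sodium, 26 calcium and 4 HCN genes. The symbols chose them and no measured value did. The KCN prefix also takes in genes whose products are not gated by voltage, among them the inward rectifiers (KCNJ), the tandem-pore leak channels (KCNK), accessory subunits, and KCNRG, a regulator of potassium channels that is not a channel subunit itself. CACNG genes carry a calcium-channel name, but CACNG2, CACNG4, CACNG7 and CACNG8 are best known as auxiliary proteins of AMPA-type glutamate receptors.

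The cells were SH-SY5Y, a human neuroblastoma cell line with neuron-like properties, and RNA sequencing was done on 2 untreated libraries (control a and b) and 2 libraries of cells given sodium nitroprusside, a donor of nitric oxide, for 8 h (SNP a and b). The study's question was how mRNA levels differ between the treated state, which the labels call oxidized, and the untreated one. The labels' treatment protocol describes the cells as differentiated with retinoic acid, which both groups would then share; it speaks of several SNP doses and does not give the one sequenced. Nothing in the labels says that the libraries of a group came from separate cultures, so the p-values measure only the spread between these libraries, which may be technical. Summed gene counts were between 5613144 and 8056550 per library, and 3 counts, taken as the smallest level a library can show, corresponded to between 0.378 and 0.533 CPM (counts scaled to the size of the library); this floor covers counting error only.

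Voltage-gated channels open and close as the potential across the membrane changes. Sodium channels carry the rising phase of the action potential, potassium channels end it and hold the resting potential, calcium channels turn it into calcium entry, and HCN channels, which open on hyperpolarization, set rhythm and excitability. Most are built from a pore-forming subunit (alpha in sodium and potassium channels, alpha1 in calcium channels) and auxiliary subunits that govern traffic to the surface and gating. Neuroblastoma cells derive from the sympathetic lineage and are excitable, and SH-SY5Y is widely used for recording such currents.

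Of the 141 channel genes, 67 had enough counts for a test, 54 were counted at levels too low to test, and 20 were listed at 0 in every library. With SNP, 20 of the 67 tested genes changed: 16 fell and 4 rose. The genes that fell included 3 of the 4 calcium-channel beta subunits (CACNB1, CACNB2 and CACNB3), both tested alpha2delta subunits (CACNA2D1 and CACNA2D2), and 3 KCNH potassium channels (KCNH1, KCNH2 and KCNH7). The genes that rose were the sodium channel alpha subunit SCN2A, the sodium channel beta subunit SCN4B, the AMPA-receptor auxiliary gene CACNG8 and the potassium channel KCNC4. Significance was judged by edgeR's quasi-likelihood test, with p-values adjusted by Benjamini-Hochberg over the 14759 genes that entered it and a threshold of 0.05. In bulk RNA, fewer cells of one kind and less RNA per cell cannot be told apart.

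Against all genes tested, the share of channel genes that changed was near the background: 29.9% of the channel genes against 26.2% of all genes. By direction, 23.9% of the channel genes fell against 12.6% of all genes, and 5.97% rose against 13.6% of all genes. With the Wald test of DESeq2, 9 of the 67 channel genes fell and 3 rose, together 17.9% against 16.1% of all genes. By direction, 7.50% of all genes fell and 8.60% rose with that test. The median log2 fold change (SNP over control) of the channel genes was -0.21, with 40 below 0 and 27 above, and that of all genes tested was -0.0042. In 35 of the 67 channel genes both SNP libraries lay below both control libraries, a pattern found in 32.3% of all genes. In 13 of the 67 they lay above, a pattern found in 31.7% of all genes. Together these 48 genes were 71.6% of the channel genes tested, and the same held for 64.0% of all genes. The direction of the calls depended on a correction for base composition: rises were 20% of the channel calls as tested and 46.7% with offsets for gene length, GC content and the excess of guanine over cytosine (7 rises and 8 falls). Without control a, 12 channel genes passed (9 falls and 3 rises).

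**Figure D1:**
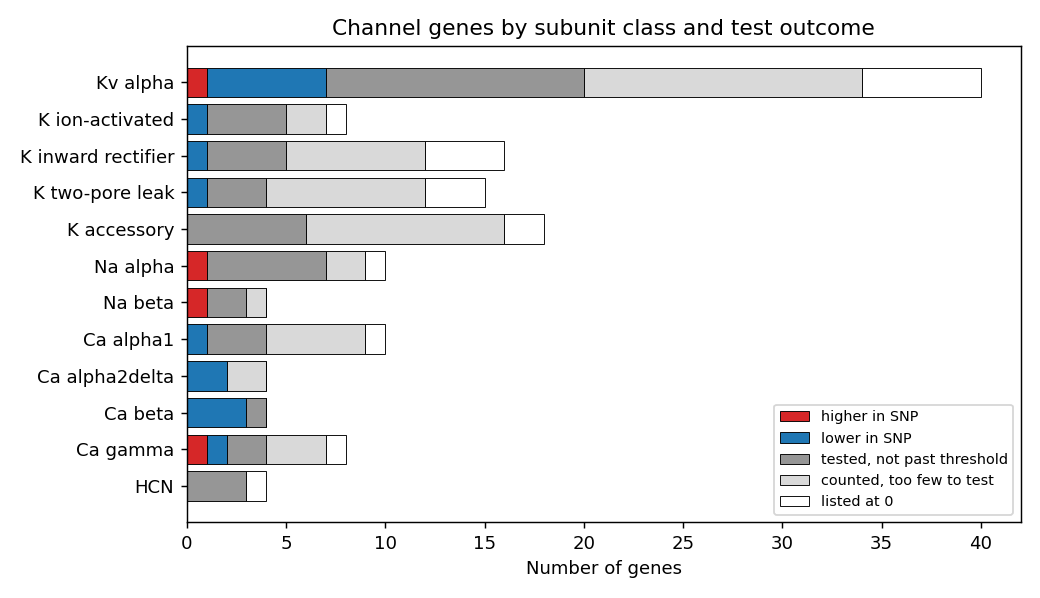
Number of channel genes (horizontal axis) in each subunit class, divided by test outcome: higher in SNP, lower in SNP, tested and not past the threshold, counted but too few to test, and listed at 0. Falls make up most of the tested calcium-channel beta and alpha2delta classes and 6 of the 20 tested Kv alpha genes, and the rises are single genes in 4 classes.

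Passing the filter on low counts needed at least 10 counts, scaled to the median library, in 2 libraries. Of the 67 tested channel genes, 62 reached that level in all 4 libraries. Only SCN4B and KCNK6 were under it in both control libraries and so were tested because of their SNP libraries, and no gene was tested through the control libraries alone. Of the 20 genes that changed, SCN4B alone was under the level in any library.

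In TPM, a scale of transcripts that allows for gene length, the most abundant channel gene was CACNG4 with a mean of 274 TPM over the 4 libraries. It was followed by CACNA2D1 at 207 TPM, KCNH2 (hERG, the potassium channel of cardiac repolarization) at 119 TPM, CACNA2D2 at 67.8 TPM, SCN9A at 57.9 TPM and KCNT2 at 57.6 TPM. KCNH1, at 54.5 TPM, CACNA1B, at 53.1 TPM, and SCN3A, at 44.5 TPM, were also among the 10 most abundant. Of those 10 genes, 6 fell with SNP and 4 did not pass the test, where 12.6% of all genes tested fell. With a filter at a mean of 50 counts, 16.1% of all genes fell. The share among all genes of like abundance was not taken, so the 6 falls are not read as a trait of abundant channels. All 141 genes together held between 0.241% and 0.286% of the gene counts of a library, and both SNP libraries (0.241% and 0.260%) were below both control libraries (0.283% and 0.286%).

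**Figure D2:**
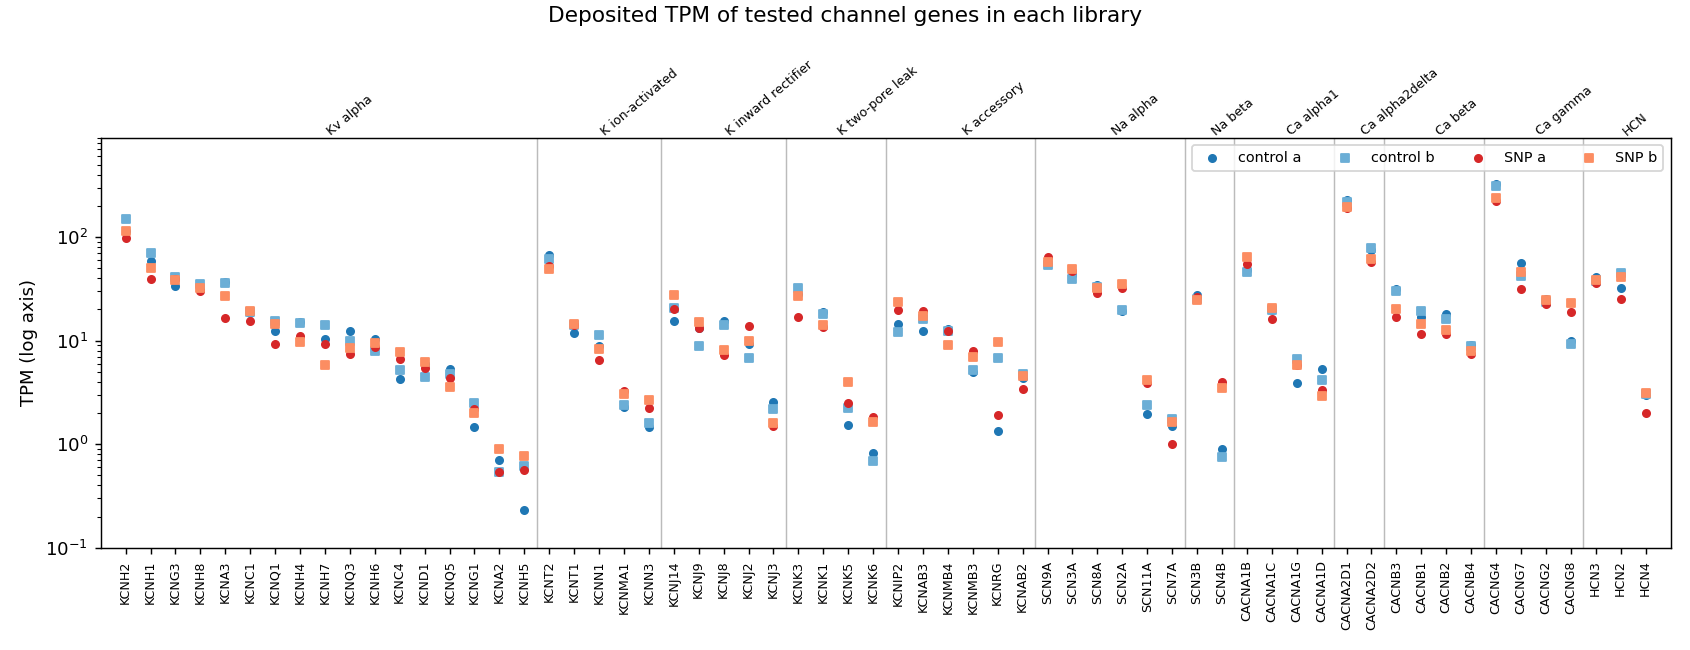
Deposited TPM (vertical log axis) of 62 tested channel genes in the 4 libraries, ordered by subunit class and mean level, with circles for a libraries and squares for b libraries. Levels span from under 1 TPM (KCNH5, KCNA2) to over 200 TPM (CACNG4), a range far wider than the distance between the control and SNP points of any gene.

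Of the 14 sodium channel genes 10 were tested, SCN4B because of its SNP libraries alone. SCN2A and SCN4B rose (20%, against 13.6% of all genes), and 8 did not pass the test. None fell by edgeR's test, DESeq2 or limma-voom, and of the 4 below 0 only SCN8A had an unadjusted p under 0.05. The median log2 fold change was 0.057. Of the alpha subunits, which form the pore, 7 of 10 were tested. SCN2A (chr2:165194993-165392310, plus strand), the channel of axon initial segments of the brain, was at 97.2 and 98.5 CPM in control a and b and 154 and 161 CPM in SNP a and b. The control libraries were alike, and both SNP libraries were well above them. SCN2A rose 1.61-fold, a log2 fold change of 0.69 ± 0.10 (SE; edgeR quasi-likelihood test, Benjamini-Hochberg adjusted p = 6.20e-05), and it passed the test under each of the 16 alternatives tried, between 0.56 and 0.75. Its share of the summed sodium alpha TPM went from 11.7 ± 0.607% in control to 17.9 ± 0.863% in SNP (mean ± SD, n = 2 libraries each).

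The sodium alpha genes with more TPM than SCN2A did not pass the test. The annotated exons of SCN2A together hold 23695 bases, whereas its longest coding transcript has 8881. Its TPM, rank and share therefore depend on the length taken. SCN9A, a channel of sensory and sympathetic neurons, was at 55.5 and 54.1 TPM in control a and b and at 64.4 and 57.6 TPM in SNP a and b, and made up 33.0 ± 0.357% of the sodium alpha TPM in control and 32.1 ± 2.91% in SNP (mean ± SD, n = 2 libraries each). Its log2 fold change was 0.04 ± 0.11 (SE) and did not pass. SCN3A, known from the developing brain, was at 43.4 and 39.6 TPM in control and 46.6 and 48.6 TPM in SNP, with a log2 fold change of 0.08 ± 0.11. SCN8A, the channel of nodes of Ranvier, had both SNP libraries (86.2 and 92.6 CPM) below both control libraries (109 and 103 CPM), with a log2 fold change of -0.25 ± 0.11 that missed the threshold (edgeR adjusted p = 0.0960). SCN11A, a channel of pain-sensing neurons, lay at 3.24 and 3.91 CPM in control and 6.04 and 6.09 CPM in SNP, with a log2 fold change of 0.77 ± 0.34 that also missed it (edgeR adjusted p = 0.101). SCN7A, a sodium-sensing relative, was at -0.41 ± 0.46.

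Among the sodium channel beta subunits, which modify gating and cell adhesion, 3 of 4 were tested. SCN4B (chr11:118133377-118152888, minus strand), whose tail is known to block the open pore and so give resurgent current, had 7 and 5 counts in control a and b and 36 and 29 counts in SNP a and b. The control counts were just above the floor of 3 counts and the SNP counts were several times higher in both libraries. Scaled to depth, SCN4B was at 1.08 and 0.888 CPM in control and 4.53 and 3.76 CPM in SNP. SCN4B was under the filter's count level in both control libraries and was tested because of its SNP libraries. The size and rank of its rise are therefore poorly fixed. That rise of 4.14-fold, a log2 fold change of 2.05 ± 0.49 (SE), was the largest of any channel gene tested (edgeR adjusted p = 0.00394). Without SNP a it was at 1.91 and no longer passed, and a filter at a mean of 50 counts left it untested.

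SCN3B, the most abundant beta gene, was at 27.5 and 25.3 TPM in control and 26.4 and 24.6 TPM in SNP. Its log2 fold change was -0.17 ± 0.13 (SE) and did not pass, and its share of the sodium beta TPM was 90.6 ± 0.638% in control and 76.6 ± 2.61% in SNP. The share of SCN4B was 2.80 ± 0.166% in control and 11.2 ± 0.918% in SNP (mean ± SD, n = 2 libraries each). SCN2B had 4 counts in each control library and 7 and 16 in SNP a and b, too few to test.

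The promoter sequences of SCN2A and SCN4B are shown because these were the sodium channel genes that rose. Each runs from 250 bases before to 50 bases after the start given by RefSeq (GRCh38.p14), 5′ to 3′ on the gene's strand, with GC boxes (GGGCGG on either strand) in capitals. The SCN4B window lies at chr11:118145384-118145683 on the minus strand and holds 2 GC boxes and 18 CpG dinucleotides. The SCN2A window lies at chr2:165239164-165239463 on the plus strand and holds no GC box and 2 CpG dinucleotides. Both RefSeq starts lie inside the gene spans of the GENCODE annotation, so other starts of these genes are not in these windows.
SCN4B: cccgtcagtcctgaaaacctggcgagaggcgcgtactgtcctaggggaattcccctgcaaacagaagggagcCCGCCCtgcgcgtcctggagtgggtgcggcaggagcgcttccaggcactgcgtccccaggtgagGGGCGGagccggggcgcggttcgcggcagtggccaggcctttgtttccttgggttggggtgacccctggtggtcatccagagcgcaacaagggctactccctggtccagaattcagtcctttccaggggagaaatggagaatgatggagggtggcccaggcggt
SCN2A: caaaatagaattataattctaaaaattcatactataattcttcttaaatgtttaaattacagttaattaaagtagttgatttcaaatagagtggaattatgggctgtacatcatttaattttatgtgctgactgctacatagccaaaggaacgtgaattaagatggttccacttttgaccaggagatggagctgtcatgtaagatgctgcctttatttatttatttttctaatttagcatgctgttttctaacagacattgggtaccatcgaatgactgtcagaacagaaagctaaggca

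Of the 26 calcium channel genes 14 were tested: 7 fell, 1 rose and 6 did not pass, with a median log2 fold change of -0.41. In 11 of the 14 both SNP libraries lay below both control libraries, a pattern found in 32.3% of all genes tested. Falls were 50% of the calcium channel genes tested, against 12.6% of all genes, and rises 7.14% against 13.6%. The calcium channel falls were 3 of 4 tested beta, 2 of 2 tested alpha2delta, 1 of 4 tested gamma and 1 of 4 tested alpha1 genes. The median of guanine minus cytosine in this class was -2.00 percentage points. In the third of all genes lowest in that measure, 26.5% fell. With offsets for length, GC content and guanine minus cytosine, CACNA2D2, CACNB1 and CACNG4 no longer passed, while CACNA1D, CACNA2D1, CACNB2 and CACNB3 did. Base composition as a cause of the calcium channel falls was not tested.

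The beta subunits are cytoplasmic proteins that bring alpha1 to the membrane and tune its gating. CACNB3 (chr12:48813794-48828941, plus strand), the most abundant of them, was at 39.2 and 36.4 CPM in control a and b and 19.5 and 22.0 CPM in SNP a and b. Both SNP libraries were far below both control libraries. CACNB3 fell 1.82-fold, a log2 fold change of -0.86 ± 0.16 (SE; edgeR quasi-likelihood test, Benjamini-Hochberg adjusted p = 0.000397), and passed under all 16 alternatives, between -0.95 and -0.63. CACNB2 (chr10:18140677-18543557, plus strand), known from heart, was at 25.6 and 22.2 CPM in control and 15.2 and 15.8 CPM in SNP, a log2 fold change of -0.62 ± 0.18 (edgeR adjusted p = 0.0141). CACNB1 (chr17:39173456-39197703, minus strand), known from skeletal muscle, was at 25.4 and 28.8 CPM in control and 16.4 and 19.7 CPM in SNP, a log2 fold change of -0.59 ± 0.18 (edgeR adjusted p = 0.0177). In both genes the highest SNP library lay below the lowest control library.

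CACNB4, the fourth beta gene, had both SNP libraries (41.4 and 41.8 CPM) below both control libraries (53.4 and 51.5 CPM). Its log2 fold change of -0.33 ± 0.13 (SE) missed the threshold (edgeR adjusted p = 0.0608), and CACNB4 passed with the replicate block and with the offsets for base composition. The summed TPM of the 4 beta genes was 75.8 and 74.4 in control and 47.6 and 55.2 in SNP. The fall was shared unevenly: CACNB3 made up 41.3 ± 1.04% of that sum in control and 36.0 ± 0.532% in SNP, and CACNB4 11.9 ± 0.0186% and 15% ± 0.987 (mean ± SD, n = 2 libraries each). CACNB2 did not pass without control a, at -0.52, or with the replicate block and offsets for guanine over cytosine together, at -0.50, and CACNB1 did not pass without control b, at -0.50, or without SNP a, at -0.46. Neither passed with the Wald test of DESeq2, at -0.62 and -0.58. CACNB1 also did not pass with offsets for guanine over cytosine, with or without the replicate block. Its estimates over the 16 alternatives lay between -0.72 and -0.33.

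The promoters of CACNB1, CACNB2 and CACNB3 are shown because these genes of one class fell together, drawn in the same way from RefSeq (GRCh38.p14) with GC boxes in capitals. They lie at chr17:39197620-39197919 (minus strand), chr10:18140174-18140473 (plus strand) and chr12:48814230-48814529 (plus strand). The CACNB1 window holds 4 GC boxes, of which a pair overlaps, the CACNB3 window holds 2, and the CACNB2 window holds none. CpG dinucleotides numbered 28, 38 and 19 in the same order. The CACNB3 window lies inside the span of that gene in the GENCODE annotation, so starts further upstream are not in it.
CACNB1: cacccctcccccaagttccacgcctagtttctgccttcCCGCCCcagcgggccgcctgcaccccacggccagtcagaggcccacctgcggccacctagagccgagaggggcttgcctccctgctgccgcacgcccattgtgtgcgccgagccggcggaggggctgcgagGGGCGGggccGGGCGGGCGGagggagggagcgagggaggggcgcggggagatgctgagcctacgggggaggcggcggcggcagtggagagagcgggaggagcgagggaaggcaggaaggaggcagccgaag
CACNB2: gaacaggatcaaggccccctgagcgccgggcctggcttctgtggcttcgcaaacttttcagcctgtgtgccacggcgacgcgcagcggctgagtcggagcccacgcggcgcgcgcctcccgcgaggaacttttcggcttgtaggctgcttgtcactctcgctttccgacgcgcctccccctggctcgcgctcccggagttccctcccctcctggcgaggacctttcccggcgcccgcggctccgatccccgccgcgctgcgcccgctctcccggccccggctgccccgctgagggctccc
CACNB3: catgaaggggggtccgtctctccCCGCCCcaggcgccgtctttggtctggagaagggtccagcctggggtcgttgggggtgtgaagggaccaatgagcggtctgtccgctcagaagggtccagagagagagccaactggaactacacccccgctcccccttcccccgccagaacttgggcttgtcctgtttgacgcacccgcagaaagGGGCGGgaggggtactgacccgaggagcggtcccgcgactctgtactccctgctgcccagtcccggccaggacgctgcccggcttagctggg

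Over the channel genes, 101 of 141 had a promoter in the RefSeq table, among them 48 tested genes and 15 that changed. A GC box stood in 37 of the 48 (77.1%), against 69.9% of the promoters of all genes tested and 44.6% of the 27305 promoters of that length in the table. It stood in 9 of 12 channel genes that fell and 2 of 3 that rose. A TATA box (TATAAA, either strand) stood in 6.25% of the tested channel promoters and 5.5% of those of all genes tested, and a CCAAT box (CCAAT, either strand) in 39.6% and 36.9%. These matches describe the letters of the windows only.

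The alpha2delta subunits are extracellular proteins that raise the number of channels at the surface and are the targets of gabapentin. CACNA2D1 (chr7:81946444-82443798, minus strand) was at 439 and 413 CPM in control a and b and 347 and 333 CPM in SNP a and b. CACNA2D2 (chr3:50362799-50504244, minus strand) was at 102 and 104 CPM in control and 72.1 and 74.2 CPM in SNP. In each gene the libraries of a group were close together and the groups did not overlap. CACNA2D1 fell 1.25-fold, a log2 fold change of -0.32 ± 0.09 (SE; edgeR adjusted p = 0.0114), the smallest change among the 20 genes. CACNA2D2 fell 1.40-fold, a log2 fold change of -0.49 ± 0.11 (edgeR adjusted p = 0.00234). CACNA2D1 no longer passed without control a, at -0.28, nor when scaled by the read totals that the deposited RPKM values imply, at -0.26. CACNA2D2 no longer passed with offsets for guanine over cytosine, at -0.15.

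Among the gamma genes the most abundant one fell and the least abundant of those tested rose. CACNG4 (chr17:66964910-67033398, plus strand) was at 325 and 312 TPM in control a and b and 222 and 239 TPM in SNP a and b, or 235 and 222 CPM against 150 and 154 CPM. CACNG8 (chr19:53963040-53990215, plus strand) was at 10.0 and 9.35 TPM in control and 18.7 and 23.1 TPM in SNP, or 18.8 and 17.2 CPM against 32.7 and 38.6 CPM. The groups of both genes were far apart, in opposite directions. CACNG4 fell 1.501-fold, a log2 fold change of -0.59 ± 0.10 (SE; edgeR adjusted p = 0.000166), and CACNG8 rose 1.98-fold, a log2 fold change of 0.98 ± 0.17 (edgeR adjusted p = 0.000204). The share of CACNG8 in the summed gamma TPM was 2.39 ± 0.0145% in control and 6.55 ± 0.441% in SNP (mean ± SD, n = 2 libraries each). With offsets for guanine over cytosine, CACNG4 was at -0.12 and no longer passed, whereas CACNG8 passed, at 0.48. CACNG7, at 33.6 and 25.0 CPM in control and 17.6 and 24.4 CPM in SNP, had a log2 fold change of -0.49 ± 0.19 that missed the threshold (edgeR adjusted p = 0.0610). It passed with the replicate block, at -0.49, without control b, at -0.68, and without SNP b, at -0.74, and was at -0.06 with offsets for guanine over cytosine. CACNG2, the founding member of the AMPA-receptor auxiliary family, was at -0.16 ± 0.19.

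Of the pore-forming alpha1 genes, 4 of 10 were tested. CACNA1D (chr3:53328963-53813733, plus strand), an L-type channel of neurons and endocrine cells, was at 22.1 and 16.9 CPM in control a and b and 12.7 and 10.8 CPM in SNP a and b. The control libraries were further apart than the SNP libraries, and the groups did not overlap. CACNA1D fell 1.66-fold, a log2 fold change of -0.73 ± 0.21 (SE; edgeR adjusted p = 0.0122), and it did not pass without control a, at -0.53, or with DESeq2, at -0.73. CACNA1B, the N-type channel of presynaptic endings and the most abundant alpha1 gene, was at 47.7 and 46.4 TPM in control and 54.5 and 63.8 TPM in SNP, and its log2 fold change was 0.21 ± 0.11 (edgeR adjusted p = 0.173). CACNA1B made up 61.1 ± 1.38% of the alpha1 TPM in control and 67.9 ± 0.119% in SNP (mean ± SD, n = 2 libraries each), and with offsets for length and GC content it passed, at 0.33. CACNA1C, also an L-type channel, was at -0.22 ± 0.12 and did not pass. Over the 16 alternatives CACNA1C ran between -0.36 and 0.07, and it passed only without SNP b, at -0.36. CACNA1G, a T-type channel, was at 0.04 ± 0.25. CACNA1A, the P/Q-type channel, had between 3 and 6 counts in each library, and CACNA1H was listed at 0.

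**Figure D3:**
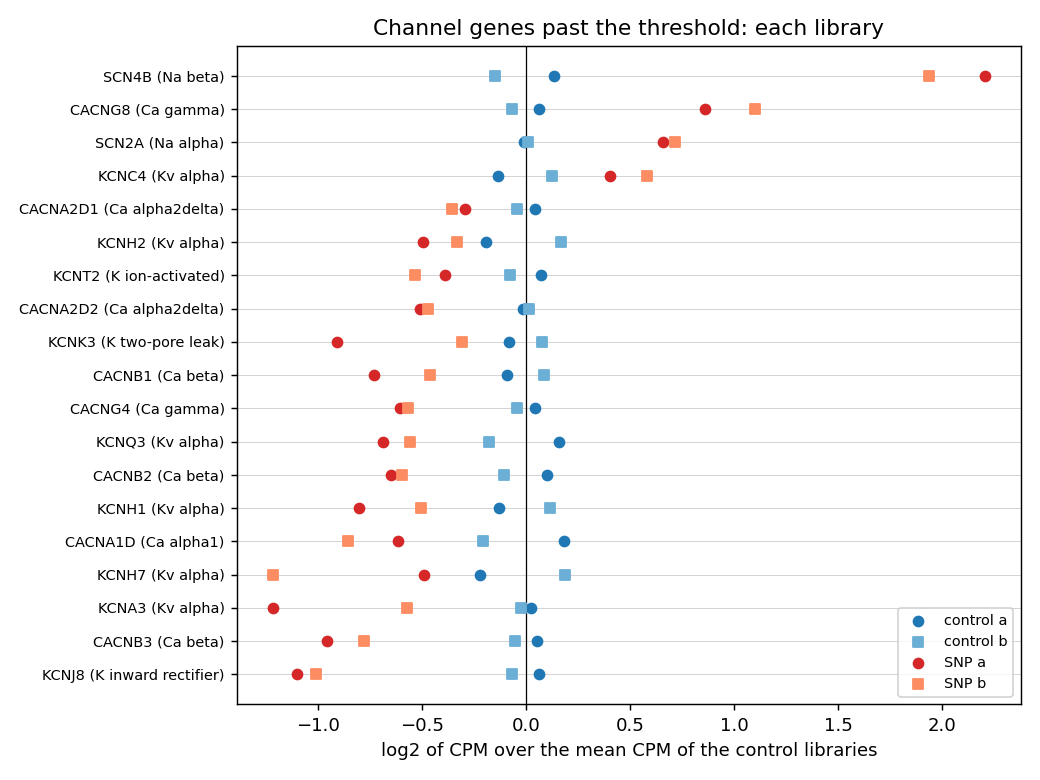
Channel genes that changed (19 of the 20), with the log2 ratio of each library's CPM to the mean CPM of the control libraries (horizontal axis, in log2 units) and the 2 control and 2 SNP libraries as separate points. The SNP points lie on one side of both control points in every gene shown, and SCN4B, CACNG8, SCN2A and KCNC4 are the genes to the right.

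Potassium channels were the largest family: of 97 genes, 40 were tested, 9 fell, 1 rose and 30 did not pass. Falls were 22.5% of the potassium genes tested, against 12.6% of all genes, and rises 2.5% against 13.6%. The median log2 fold change of the potassium genes was -0.10. The voltage-gated alpha subunits (KCNA, KCNB, KCNC, KCND, KCNF, KCNG, KCNH, KCNQ, KCNS and KCNV) accounted for 6 of the falls and the rise, among 20 tested of 40. Their median log2 fold change was -0.22.

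The KCNH genes encode the EAG, ERG and ELK channels, some of which are found raised in tumours. KCNH1 (EAG; chr1:210676823-211134180, minus strand) was at 122 and 145 CPM in control a and b and 76.9 and 94.4 CPM in SNP a and b. KCNH2 (hERG; chr7:150944961-150978315, minus strand) was at 143 and 183 CPM in control and 116 and 130 CPM in SNP. KCNH7 (a second ERG channel; chr2:162371407-162838730, minus strand) was at 11.1 and 14.7 CPM in control and 9.19 and 5.58 CPM in SNP. Both SNP libraries were lower in each gene, and in KCNH2 and KCNH7 the nearest SNP and control libraries were close. KCNH1 fell 1.56-fold, a log2 fold change of -0.64 ± 0.12 (SE; edgeR quasi-likelihood test, Benjamini-Hochberg adjusted p = 0.000514), and passed under all 16 alternatives. KCNH2 fell 1.33-fold, at -0.41 ± 0.12 (edgeR adjusted p = 0.0139), and KCNH7 1.74-fold, at -0.80 ± 0.27 (edgeR adjusted p = 0.0318). KCNH2 did not pass without control b, at -0.22, or without SNP a, at -0.33, and KCNH7 did not pass without control b, at -0.59, or without SNP b, at -0.48. With offsets for guanine over cytosine, KCNH2 was at -0.10 and KCNH7 at -0.51, and neither passed. KCNH7 also did not pass with DESeq2, at -0.80, nor KCNH2 with the totals that RPKM implies, at -0.33.

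Of the other KCNH genes, KCNH4 (ELK) had both SNP libraries (8.69 and 7.26 CPM) below both control libraries (12.6 and 12.3 CPM), and its log2 fold change of -0.64 ± 0.24 missed the threshold (edgeR adjusted p = 0.0522). KCNH4 passed with a filter at a mean of 50 counts, with the replicate block and without SNP a. KCNH8 and KCNH6 were at -0.21 ± 0.14 and -0.15 ± 0.27, and KCNH5 at 0.56 ± 0.62. The summed TPM of the KCNH genes was 239 and 291 in control and 197 and 225 in SNP, of which KCNH2 held 49.0 ± 2.52% and 50.5 ± 0.976% (mean ± SD, n = 2 libraries each).

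KCNQ3 encodes a subunit of the M current, a slow potassium current that damps repetitive firing. It was at 33.5 and 26.5 CPM in control a and b and 18.6 and 20.4 CPM in SNP a and b. The groups were apart, with the control libraries further from each other than the SNP libraries. KCNQ3 fell 1.54-fold, a log2 fold change of -0.62 ± 0.17 (SE; edgeR adjusted p = 0.0106). It did not pass without control a, at -0.44, with DESeq2, at -0.62, or with offsets for guanine over cytosine, at -0.45. KCNQ5, a related subunit, had both SNP libraries (6.67 and 5.19 CPM) below both control libraries (8.64 and 7.63 CPM) and did not pass, at -0.46 ± 0.29.

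The Kv3 channels of the KCNC genes repolarize fast-firing neurons. KCNC4 (chr1:110211343-110283100, plus strand) was at 22.8 and 27.3 CPM in control a and b and 33.2 and 37.5 CPM in SNP a and b. The SNP libraries were both above the control libraries. KCNC4 rose 1.41-fold, a log2 fold change of 0.50 ± 0.16 (SE; edgeR adjusted p = 0.0248). It did not pass without control a, at 0.37, without SNP b, at 0.41, or with DESeq2, at 0.50. KCNC1 was at 56.9 and 57.9 CPM in control and 44.7 and 53.5 CPM in SNP, a log2 fold change of -0.22 ± 0.13 that did not pass.

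KCNA3 (chr1:110672465-110675033, minus strand), a Shaker-type channel known from lymphocytes and neurons, was at 20.2 and 19.5 CPM in control a and b and 8.56 and 13.4 CPM in SNP a and b. The control libraries were alike, the SNP libraries were not, and both SNP values were lower. KCNA3 fell 1.82-fold, a log2 fold change of -0.86 ± 0.22 (SE; edgeR adjusted p = 0.00603). It did not pass without SNP a, at -0.57, or with offsets for guanine over cytosine, at -0.47. KCNG3, a silent subunit that modifies other potassium channels, was at -0.05 ± 0.16. KCND1 and KCNQ1 were at 0.02 ± 0.30 and -0.34 ± 0.25.

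Outside the voltage-gated alpha subunits, 1 gene fell in each class of pore-forming potassium channels. Of the channels opened by ions, 5 of 8 were tested and KCNT2 (chr1:196225779-196609225, minus strand), a sodium-activated channel, fell. It was at 102 and 92.1 CPM in control a and b and 74.1 and 67.2 CPM in SNP a and b, and the groups did not overlap. Its log2 fold change was -0.46 ± 0.12 (SE; edgeR adjusted p = 0.00540), and it did not pass without control a, at -0.39, or when scaled by the totals that RPKM implies, at -0.39. KCNT1, its nearest relative, was at 31.0 and 36.4 CPM in control and 34.2 and 33.8 CPM in SNP, a log2 fold change of 0.02 ± 0.15. KCNMA1, the BK channel, and KCNN3, an SK channel, were higher in both SNP libraries, at 0.31 ± 0.18 and 0.53 ± 0.32, without passing the test.

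Of the inward rectifiers, 5 of 16 were tested. KCNJ8 (chr12:21764955-21775581, minus strand), a pore of ATP-sensitive potassium channels, had 53 and 42 counts in control a and b and 29 and 30 in SNP a and b, or 8.17 and 7.46 CPM against 3.65 and 3.89 CPM. Both SNP libraries were at close to the same level, far below the control libraries. KCNJ8 fell 2.07-fold, a log2 fold change of -1.05 ± 0.32 (SE; edgeR adjusted p = 0.0176), the largest fall of the channel genes tested. Its share of the inward rectifier TPM was 26.6 ± 0.661% in control and 12.1 ± 0.155% in SNP (mean ± SD, n = 2 libraries each). It did not pass without control a, at -0.99, without SNP a, at -1.01, or with DESeq2, at -1.05, and a filter at a mean of 50 counts left it untested. KCNJ14, the most abundant inward rectifier, was at 15.4 and 20.6 TPM in control and 20.0 and 27.8 TPM in SNP, and its log2 fold change was 0.29 ± 0.20. KCNJ9, a G-protein-gated subunit, was at 0.22 ± 0.25. KCNJ11, the other ATP-sensitive pore, had no count in either control library and 12 and 3 counts in SNP a and b, and it passed only where no count filter was set.

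Of the tandem-pore leak channels, which set the resting potential, 4 of 15 were tested. KCNK3 (chr2:26692690-26733420, plus strand), an acid-sensitive member, was at 37.8 and 42.1 CPM in control a and b and 21.3 and 32.3 CPM in SNP a and b. The SNP libraries differed from each other by more than the nearer one differed from control a. KCNK3 fell 1.49-fold, a log2 fold change of -0.58 ± 0.17 (SE; edgeR adjusted p = 0.0182), and did not pass without control b, at -0.50, or without SNP a, at -0.30. It did not pass with DESeq2, at -0.57, or with offsets for guanine over cytosine, at -0.33. KCNK1, at 14.8 and 13.7 CPM in control and 9.82 and 9.85 CPM in SNP, had a log2 fold change of -0.53 ± 0.22 that missed the threshold (edgeR adjusted p = 0.0763). KCNK6 and KCNK5 were at 1.08 ± 0.57 and 0.66 ± 0.52 on counts of at most 22 in any library.

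Of the 18 potassium accessory genes 6 were tested, and none passed edgeR's test, DESeq2 or limma-voom; at an unadjusted p under 0.05, KCNIP2 alone passed. KCNIP2, a calcium-binding partner of Kv4 channels and the most abundant of them, was at 10.2 and 8.34 CPM in control a and b and 12.97 and 14.8 CPM in SNP a and b. Its log2 fold change of 0.58 ± 0.23 (SE) missed the threshold (edgeR adjusted p = 0.0668), and it passed with offsets for length and GC content, at 0.67, and with the totals that RPKM implies, at 0.64. KCNAB3, a beta subunit of Shaker-type channels, was at 0.24 ± 0.21. KCNRG was at 0.42 ± 0.71, with 3 and 13 counts in control a and b and 5 and 23 in SNP a and b, so that the b libraries were higher than the a libraries in both groups. Of the exon bases of KCNRG, 66.8% also belong to TRIM13, whose counts ran from 468 to 683 per library, so the counts of KCNRG are uncertain.

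Of the 4 HCN genes 3 were tested, and none passed edgeR's test, DESeq2, limma-voom or an unadjusted p of 0.05. HCN3 was at 41.3 and 37.4 TPM in control a and b and 36.3 and 38.8 TPM in SNP a and b, with a log2 fold change of -0.19 ± 0.15 (SE). HCN2 was at 31.8 and 44.5 TPM in control and 25.5 and 40.8 TPM in SNP, and the groups overlapped, with a log2 fold change of -0.33 ± 0.20 (edgeR adjusted p = 0.250). Without SNP b, HCN2 was at -0.66 and passed. HCN4, the main pacemaker isoform of the heart, was at -0.37 ± 0.37 on at most 33 counts per library. As tested, all 3 estimates lay below 0, with a median of -0.33. Over the 16 alternatives, HCN2 ran between -0.66 and 0.10 and HCN3 between -0.27 and 0.16, so the sign of neither held throughout.

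**Figure D4:**
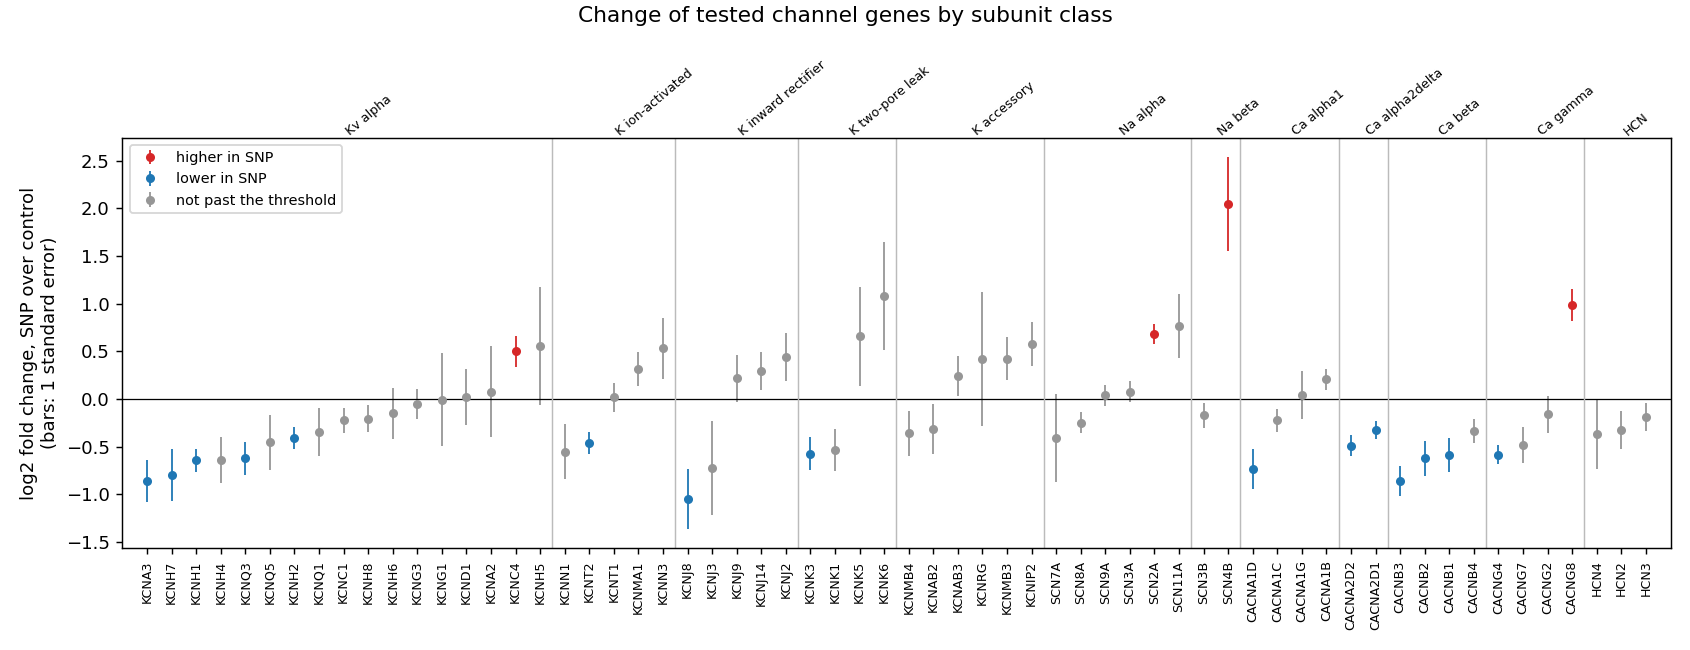
Log2 fold change of SNP over control (vertical axis, points) with 1 standard error (bars) for 62 of the tested channel genes, grouped by subunit class, in red where the gene rose, blue where it fell and grey where it did not pass the test. All 4 calcium-channel beta genes lie below 0, the sodium classes hold 2 of the 4 rises, and all 3 HCN genes lie below 0 in grey.

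The 54 genes counted at levels too low to test had at most 19 counts in any library. Over all of them, 210 counts fell in the control libraries and 418 in the SNP libraries, which were the deeper ones, and 41 of the 54 had more counts in SNP than in control. In 16 of them both control libraries were at 0 and in 3 both SNP libraries were. KCNIP4 had 0 and 3 counts in control a and b and 7 and 15 in SNP a and b. KCNK10, a mechanically gated leak channel, had 3 and 1 against 10 and 13. These 2 genes were chosen after their values were seen. Channel genes with at least 1 count numbered 100 and 96 in the control libraries and 112 in each SNP library. The numbers of this paragraph are not scaled to depth. The same shares over all genes too low to test were not taken, so no change of low-count channel genes is read from them.

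The 20 genes at 0 in every library included KCNA5, KCNA10, KCNC2, KCNG2, KCNS3, KCNV1, KCNU1, KCNJ10, KCNJ13, KCNJ16, KCNJ18, KCNK2, KCNK16, KCNK18, KCNE1B, KCNMB2, SCN10A, CACNA1H and CACNG3. KCNE1B and KCNJ18 are near-identical copies of KCNE1 and KCNJ12, which had up to 7 and 9 counts, and reads that match both copies could be missing from either. For the other genes a count of 0 allows a level of up to the floor of 0.378 to 0.533 CPM in a library.

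Across genes, the change with SNP went with the base composition of the transcripts. Base composition was taken over all annotated transcripts of a gene, as the percentage of guanine minus that of cytosine. The Spearman correlation of the log2 fold change with this difference was 0.319 over the 67 channel genes and 0.481 over the 14724 tested genes with a value; with exon length it was 0.198 and 0.0918. These are correlations across genes, which are not independent replicates and share the same 4 libraries. The channel genes had less guanine relative to cytosine, with a median difference of -0.803 percentage points against 1.04 for all genes tested, and longer exons, with a median of 7100 bases against 4868.5.

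When the tested genes were divided by this difference into 3 bands of 4908 genes each, 42 of the 67 channel genes stood in the lowest band, under -0.122 percentage points. There 13 of the 42 fell (31.0%), against 26.5% of all genes of the band, and 1 rose, the band's rises being 3.40% of all genes. The middle band held 19 channel genes, with 2 rises and 2 falls, where 8.92% of all genes of the band rose and 8.6% fell. The highest band held 6, with 1 rise and 1 fall, where 28.4% of all genes of the band rose and 2.73% fell. The median log2 fold changes of the channel genes and of all genes were -0.32 and -0.27 in the lowest band, 0.04 and -0.0074 in the middle and 0.25 and 0.23 in the highest. CACNG4, which fell, was at -5.09 percentage points, and CACNG8, which rose, at 7.74. In the longest coding transcript of CACNG8 the excess of guanine lay in the 3′ UTR, at 11.2 percentage points over 7369 bases, while its annotated coding region was at -1.10. In CACNG4 both lay below 0, at -4.80 in the 3′ UTR and -5.61 in the coding region. Over the channel genes the correlation with the change was 0.249 for coding regions (67 genes), 0.296 for 3′ UTRs (63 genes) and -0.251 for 5′ UTRs (56 genes).

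**Figure D5:**
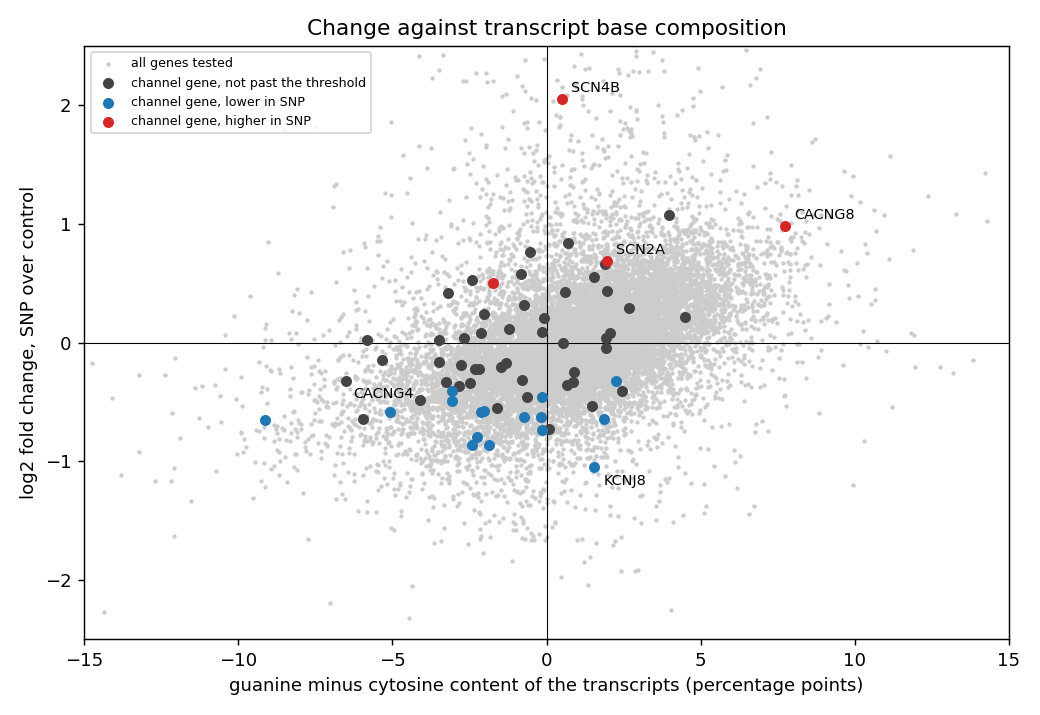
Log2 fold change of SNP over control (vertical axis) against guanine minus cytosine content of the transcripts in percentage points (horizontal axis), with all tested genes in light grey and the channel genes as larger points coloured by test outcome. Most channel genes lie left of 0 and 40 of the 67 lie below 0, within the spread of the other genes, and 91 of the tested genes lie outside the axes.

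With per-library offsets for length, GC content and guanine minus cytosine, an alternative chosen with earlier results known, 15 channel genes passed: 8 fell and 7 rose. Of the 20 genes that changed in the test without offsets, 11 passed here too. The 9 that did not were all falls and included CACNA2D2, CACNB1, CACNG4, KCNA3, KCNH2, KCNH7, KCNK3 and KCNQ3, and the 4 that passed only with offsets were CACNA1B, CACNB4, KCNIP2 and KCNMA1. The median log2 fold change of the channel genes was then 0.01. Whether the relation with base composition lies in the cells or in the libraries was not tested. CACNB3, CACNG8, KCNH1 and SCN2A passed under these offsets and under every other alternative tried.

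Of 44 genes chosen as partners of the channels (auxiliary proteins, anchors, related channels and a transcriptional regulator), 26 were tested, 6 fell and 2 rose, with a median log2 fold change of -0.24, where 12.6% of all genes fell and 13.6% rose, or 26.2% together. The falls included FGF14, an intracellular partner of sodium channels, and UNC79, a subunit of the sodium leak complex. FGF14 was at 160 and 156 CPM in control a and b and 110 and 99.3 CPM in SNP a and b, a log2 fold change of -0.60 ± 0.11 (SE; edgeR adjusted p = 0.000291). UNC79 was at 323 and 336 CPM in control and 219 and 246 CPM in SNP, a log2 fold change of -0.50 ± 0.10 (edgeR adjusted p = 0.000617). Both genes had control libraries that were alike and lower SNP libraries, and both passed under all alternatives. NALCN, the pore of the leak complex, had between 2 and 9 counts per library.

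The partner genes that rose were SPTBN4 and GEM. SPTBN4, a spectrin that anchors sodium and KCNQ channels at the axon initial segment, was at 14.2 and 19.2 CPM in control a and b and 27.6 and 29.8 CPM in SNP a and b. GEM, a small GTPase that inhibits calcium channels through their beta subunits, was at 22.7 and 24.9 CPM in control and 33.9 and 34.7 CPM in SNP. The SNP libraries of both were above both control libraries. SPTBN4 had a log2 fold change of 0.79 ± 0.18 (SE; edgeR adjusted p = 0.00293) and did not pass without control a, at 0.58, or with offsets for guanine over cytosine, at 0.25. GEM had one of 0.53 ± 0.16 (edgeR adjusted p = 0.0152) and did not pass without control a, at 0.46, without control b, at 0.60, or with DESeq2, at 0.53. CLCN4, an endosomal chloride exchanger, and DPP6, an auxiliary protein of Kv4 channels, passed the test at -0.51 ± 0.18 and -0.40 ± 0.15, but neither call was stable. CLCN4 passed under 9 of 16 alternatives and was lost without any one of the 4 libraries, between -0.56 and -0.46, with DESeq2, at -0.50, without the count filter, at -0.51, and with the totals that RPKM implies, at -0.44. DPP6 (edgeR adjusted p = 0.0485) passed under only 4 of 16 alternatives, which gave between -0.52 and -0.09, the last with offsets for guanine over cytosine. REST, the repressor of many neuronal channel genes, was at 128 and 97.5 CPM in control and 131 and 129 CPM in SNP and did not pass, at 0.20 ± 0.12.

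Marker genes moved beside these results, and their part in them was not tested. Over all genes tested, 12.6% fell and 13.6% rose. Of 8 genes of the adrenergic neuroblastoma state, 7 were tested: 4 fell, DBH, PHOX2A and GATA3 among them, HAND2 rose, and 2 did not pass. The adrenergic sum was 2709 and 2788 CPM in control and 2132 and 2258 CPM in SNP. Much of its drop was DBH, at 625 and 722 CPM in control and 220 and 298 CPM in SNP. TH, which defines catecholamine cells, was listed at 0 in every library. Of 6 mesenchymal markers VIM fell, 3 did not pass, and PRRX1 and COL1A1 had at most 6 counts in a library. The mesenchymal sum was 248 and 278 CPM in control and 186 and 183 CPM in SNP. Most of it was VIM, at 182 and 215 CPM in control and 128 and 135 CPM in SNP. Glial markers summed to between 1.01 and 2.84 CPM, with SOX10 at 0. Of 6 muscle genes, MYOG, MYH2 and ACTC1 were at 0 while TNNT2 and TNNI1 rose. Neither TNNT2 nor TNNI1 exceeded the floor of 3 counts in any control library, so both were tested because of their SNP libraries. Each SNP library held between 13 and 23 reads of either gene. The sizes of these rises are therefore poorly fixed. TNNT2 and TNNI1 made up most of the muscle sum, which was at most 0.925 CPM in control and 5.29 CPM in SNP. Of 6 genes that respond to retinoic acid, CYP26A1 was at 0, RET fell and 3 did not pass. Their sum was 448 and 510 CPM in control and 379 and 394 CPM in SNP. Most of it was RET, at 422 and 486 CPM in control and 356 and 371 CPM in SNP.

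Exons of 10 of the 20 channel genes that changed overlap exons of another annotated gene, and since the use of strand in the counting was not given in the sources used here, reads of such pairs cannot be told apart in all cases. KCNH1 shares 1582 of its 9812 exon bases with AL590132.1 on the same strand, which had 345 and 297 counts in control a and b and 356 and 389 in SNP a and b, so the fall of KCNH1 is uncertain by reads that the counting may have given to either gene. CACNB2 shares 742 bases with the antisense gene AL450384.2, which had between 44 and 64 counts in a library. CACNA1D shares 1399 bases with CHDH on the other strand, which had at most 36 counts in a library.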

How the data were processed

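The tables of the 4 SH-SY5Y libraries (control a and b, SNP a and b; groups from the sample titles and agents) each list the same genes with 3 measures. The counts are whole-number reads per gene with no normalization, deposited by the authors under the heading of an expression value. The TPM values deposited by the authors are scaled to one sum per library, and the RPKM values, per the file headers, are scaled by gene length and depth; both were made by the authors. Per the submitters' processing notes the genome build was GRCh38; the aligner, the counter and the annotation are not given in the sources used here. Of the identifiers, 57980 were found in GENCODE 29 (GRCh38), and between 90.4% and 90.5% of lengths implied by count and RPKM equalled its exon lengths within 0.5%, so positions, lengths, overlaps and base composition came from that release, and promoters from RefSeq (GRCh38.p14).

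The count test used edgeR 4.0.16 (R 4.3.3): filterByExpr (minimum count 10, minimum total 15), TMM scaling (factors 0.989 to 1.01), the quasi-likelihood test over all 14759 genes tested with no covariate, Benjamini-Hochberg adjustment and a threshold of 0.05. CPM divide counts by the summed counts of the genes tested, adjusted by TMM; a standard error is the log2 fold change over the root of its F statistic. TPM served for levels between genes and shares within a class, and RPKM only for implied lengths and read totals. Summed counts of 5613144 to 8056550 per library set the precision. The alternatives were other filters, DESeq2 size factors, total counts, limma-voom (limma 3.58.1), DESeq2 1.42.0 with its Wald test, the library letter as a block, per-library lowess offsets (span 0.5) on length, GC content and guanine minus cytosine, a threshold of 0.01 and each library left out; the read totals implied by RPKM were added after seeing the data. The scripts were tested on simulated counts.

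The channel genes, the partner and marker lists and the alternatives were chosen with earlier results of these data known. Genes were named by rule: each channel gene past the threshold, the 2 with the highest mean TPM of each class, and up to 6 partner genes past the threshold with the largest change; other genes were named after their values were seen. Some genes of these families and lists enter the counts and sums and are not reported here by name.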

Additional observations from a re-analysis of the deposited data

How the results depend on the processing

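None of the 40 genes whose change was recomputed under the alternatives (the channel genes past the threshold, the most abundant of each class and 6 partner genes) reversed its direction past the threshold. The other genes named were not recomputed one by one. Against 20 channel genes as tested (4 higher, 16 lower), DESeq2's Wald test passed 12 (9 lower), a threshold of 0.01 passed 10 (7 lower), and offsets with guanine minus cytosine passed 15 (7 higher, 8 lower). Offsets for length and GC content passed 24 (7 higher), with or without the replicate block. Leaving out a library gave between 12 and 22 channel calls, of which 3 to 5 were higher and 9 to 18 lower, with the lowest counts without control a. Over all genes, the 3861 calls (2002 higher, 1859 lower) became 2377 (1270 and 1107) with DESeq2 and 2224 (1156 and 1068) at 0.01. Leaving out a library gave 2447 to 4144 (1244 to 2155 higher, 1162 to 1989 lower). With the read totals implied by RPKM, of which the gene counts were a small part, 1218 genes were lower and 63.1% of all calls were higher, against 51.9% as tested.

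The libraries share only the letters a and b between groups, and the correlation of their deviations was 0.0469, so the letters were not taken as pairs. The replicate block gave 23 channel calls and 4487 over all genes, and together with the offsets that include guanine minus cytosine 13 channel calls (7 lower). Where a call was lost, the cause was not tested, apart from the fewer libraries of the fits that leave one out, in which the lone library of a group was assumed to vary like the other group. Depth limits the low-count genes: KCNK6, at a log2 fold change of 1.08 on 5 to 18 counts per library, did not pass.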
